A study of Mus musculus with 6 samples.

Results

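The genes of DNA replication and S phase were examined in LSK cells, the bone marrow fraction that lacks lineage markers, carries Sca-1 and Kit and is enriched in haematopoietic stem cells. The set held 46 genes with known roles in copying DNA or in S phase, chosen with earlier results of these data known. It was read from the probe sets whose platform annotation gives exactly 1 symbol. Of the 46, 45 had such a probe set, 80 probe sets in all, among 12393 genes with one on this array. Chaf1a had none. Each gene was represented by its probe set with the highest mean signal, and 44 genes passed the filter on low signals, which took the brightest 60% of probe sets. Tyms did not pass.

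The study compared 3 samples labelled Gfi1 knockout with 3 labelled wild type, numbered 5, 7 and 8 in each group, each hybridised to 1 single-colour Affymetrix array. Gfi1 encodes a zinc finger repressor of transcription that restrains stem cell division and is needed for neutrophils. The labels state no allele, strain, age or number of mice per sample, so p-values measure only the spread between these samples, which may be technical. The single Gfi1 probe set read 692, 1163 and 1737 on the knockout arrays (numbers 5, 7 and 8 in this order, as in every list of signals below) and 632, 608 and 723 on the wild-type ones. It was not lower in the knockout group (0.76 ± 0.28, SE, on the log2 scale; limma adjusted p = 0.148), and it was 1.10 (adjusted p = 0.0354) without knockout 5 and 0.45 (adjusted p = 0.466) without knockout 8. Whether the probe set lies in the deleted part is not known, so the group is called knockout-labelled and every direction below rests on the labels.

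Before a cell copies its genome, the origin recognition complex, Cdc6 and Cdt1 load the ring of Mcm2 to Mcm7 onto DNA in G1. In S phase Mcm10, Cdc45 and the GINS complex turn the ring into an active helicase, and polymerases held on DNA by the PCNA clamp copy both strands. Many of these genes are switched on together at the G1/S boundary by E2F transcription factors. In bone marrow most long-term stem cells are quiescent and their progenitors divide more often, so levels of these transcripts in a bulk sample depend both on how many cells cycle and on how much RNA each holds, which cannot be told apart here.

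Because E2F sites are the feature that links many of these genes, the start regions of the members were searched for 3 E2F motifs, TTTCGCGC, TTTGGCGC and TTTCCCGC, on both strands, in RefSeq windows of 300 bases (250 before and 50 after the gene start, build GRCm38.p6). Windows were found for 39 of the 46 members. Of these, 13 (33.3%) held at least 1 motif, against 573 of 27025 genes with a window in the table (2.12%) and 1.84% of all windows. The licensing and helicase genes had motifs in 7 of 12 windows, among them Orc1, Cdc6, Cdt1, Mcm3, Mcm5, Mcm6 and Mcm7, and the polymerase genes in 3 of 6 (Pola1, Pold1 and Pole2). Other lists, described below, were searched for comparison. E2F factors and G1/S kinases held a motif in 7 of 15 genes (46.7%). Other replication factors held one in 11 of 33 (33.3%). Checkpoint and fork repair genes held one in 3 of 20 (15%), nucleotide synthesis genes in 2 of 28 and mitosis genes in 1 of 29. The share was therefore not particular to the members. The 6 members with a motif and the smallest p-values in the comparison of the groups are shown 5′ to 3′ on the strand of the gene, with the motif in capitals. Cdc6 (chr11:98907901-98908160, plus strand), Uhrf1 (chr17:56304063-56304322, plus), Mcm5 (chr8:75109259-75109518, plus) and Rfc3 (chr5:151651199-151651458, minus) are given from base -250 to base 10 around the start.
Cdc6: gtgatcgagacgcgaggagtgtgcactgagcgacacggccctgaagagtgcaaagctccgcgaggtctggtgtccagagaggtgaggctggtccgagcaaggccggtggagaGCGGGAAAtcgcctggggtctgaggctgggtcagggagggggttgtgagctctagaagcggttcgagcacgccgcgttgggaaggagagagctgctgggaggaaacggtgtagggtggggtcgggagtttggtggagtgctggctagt
Uhrf1: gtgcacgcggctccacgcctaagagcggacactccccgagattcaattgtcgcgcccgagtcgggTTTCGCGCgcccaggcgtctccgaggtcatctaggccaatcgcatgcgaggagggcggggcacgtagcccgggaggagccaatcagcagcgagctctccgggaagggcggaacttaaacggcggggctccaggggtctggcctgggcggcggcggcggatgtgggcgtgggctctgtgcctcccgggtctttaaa
Mcm5: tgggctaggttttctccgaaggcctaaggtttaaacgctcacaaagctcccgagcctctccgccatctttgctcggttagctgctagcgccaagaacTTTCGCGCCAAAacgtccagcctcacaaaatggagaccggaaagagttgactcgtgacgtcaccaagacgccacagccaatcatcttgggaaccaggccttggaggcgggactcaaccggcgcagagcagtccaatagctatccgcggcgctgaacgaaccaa
Rfc3: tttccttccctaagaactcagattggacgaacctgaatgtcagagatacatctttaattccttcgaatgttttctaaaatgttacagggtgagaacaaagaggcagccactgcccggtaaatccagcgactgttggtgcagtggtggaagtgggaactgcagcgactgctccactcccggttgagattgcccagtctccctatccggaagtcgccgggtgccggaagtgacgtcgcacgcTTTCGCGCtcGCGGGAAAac
Lig1 (chr7:13278841-13278870, plus) and Cdt1 (chr8:122568030-122568059, plus), whose motif lies after the start, are given from base 16 to base 45.
Lig1: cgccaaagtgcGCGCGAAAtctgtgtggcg
Cdt1: tccgcgggaactaccttTTTGGCGCcatgg
In Mcm5, TTTCGCGC and TTTGGCGC on the other strand overlap in a run of capitals, and Rfc3 held 2 motifs on opposite strands at the start itself. A match is a run of letters and not a measured binding site. The 13 tested members with a motif had a median difference between the groups of 0.29, with 12 above 0, and the 24 with a window and none had a median of 0.25, with 19 above 0. The difference between these medians was not tested.

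Most members had a slightly stronger signal in the knockout-labelled arrays, but no single gene passed the threshold. Differences are given as knockout-labelled minus wild type on the log2(signal + 16) scale with the SE of the fit, and the test was limma with Benjamini-Hochberg adjustment over all 13575 probe sets tested. Of the 44 tested members 0 were called higher and 0 lower, where 1.42% of all 8239 genes tested were called higher and 2.48% lower. Without adjustment, p was under 0.05 for 14 members that were higher (31.8%) and 0 that were lower, against 9.41% and 11.2% of all genes. The 14 became 7 without knockout 8, 8 without knockout 7 and 9 without wild type 7. The differences lay above 0 for 37 members (84.1%, against 49.2% of all genes), and their median was 0.27, against -0.01 for all genes. Differences ran from -0.31 (Mcm2) to 0.79 (Ccne1).

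**Figure D1:**
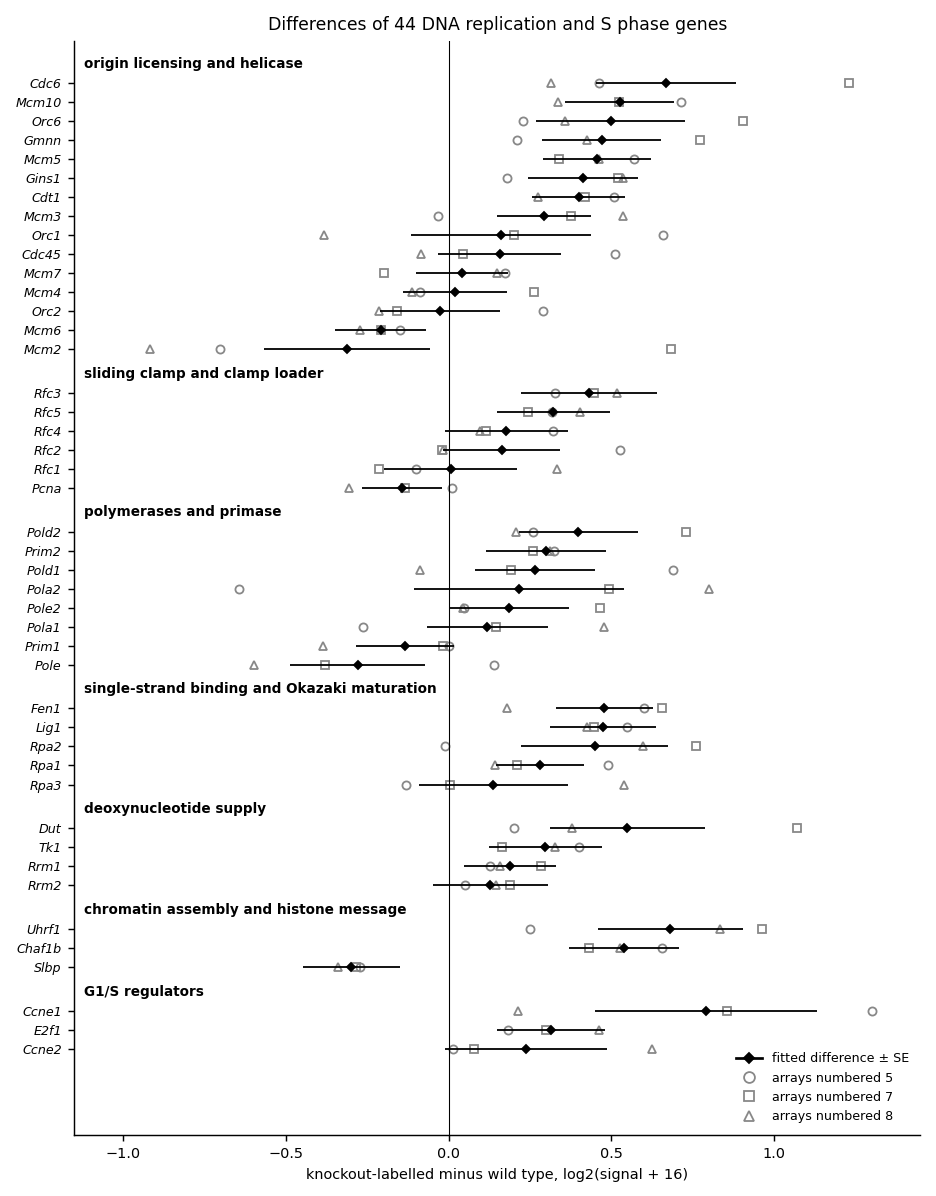
Fitted difference (diamond, with a bar of ± 1 SE) and the 3 differences between same-numbered arrays (open symbols) for 44 replication and S phase genes, ordered by role, on the log2(signal + 16) scale. 37 of the 44 diamonds lie to the right of 0, and none of the 44 genes passed the adjusted threshold.

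The same shift was seen in each of the 3 pairs of same-numbered arrays. The median over members was 0.22 between the arrays numbered 5, 0.27 between those numbered 7 and 0.29 between those numbered 8. For all genes these medians were 0.00, 0.03 and -0.05. All 3 pairs were higher for 25 members (56.8%, against 22.4% of all genes) and lower for 2 (4.55%, against 23.2%), Mcm6 and Slbp. All 3 knockout-labelled arrays lay above all 3 wild-type arrays for 16 members (36.4%, against 12.4% of all genes) and below them for 1, Slbp (2.27%, against 13.1%). In the fit with sample number as a block 1 member was called higher (2.27%, against 2.34% of all genes) and 0 lower (4.02% of all genes).

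Among the licensing factors, Cdc6, the ATPase that recruits the helicase to origins, read 1808, 2180 and 1995 in the knockout-labelled group against 1308, 919 and 1602 in wild type. The groups did not overlap, and wild type 7 was the lowest array. The difference was 0.67 ± 0.22 (adjusted p = 0.104), and it passed the threshold once wild type 8 was left out (0.85, adjusted p = 0.0478). Without wild type 7 it was 0.45 (adjusted p = 0.343). Cdt1, which loads the helicase with Cdc6, stood at 7837, 7291 and 7231 against 5509, 5450 and 5974, again without overlap, a difference of 0.40 ± 0.14 (adjusted p = 0.138). Its second tested probe set stood at 0.44. Gmnn encodes geminin, the inhibitor that blocks Cdt1 after origins have fired, and it differed in the same direction as its target. Its signals were 3507, 3668 and 4149 against 3028, 2139 and 3083, a difference of 0.47 ± 0.18 (adjusted p = 0.172) with wild type 7 lowest, or 0.30 without that array.

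No origin recognition subunit passed the threshold, and differences between them were not tested. Orc6 stood at 659, 725 and 767 against 560, 379 and 595, without overlap, a difference of 0.50 ± 0.23 (adjusted p = 0.250), or 0.30 without wild type 7. Orc1, the subunit whose level follows the cell cycle, stood at 0.16 ± 0.28 with overlapping groups, and its pair differences ran from 0.66 (arrays 5) to -0.38 (arrays 8). Orc2 gave -0.03 ± 0.18 by its brightest probe set and 0.54 ± 0.20 and 0.39 ± 0.29 by the dimmer ones, none of them past the threshold.

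No subunit of the MCM2-7 ring, which acts as a hexamer, passed the threshold, and differences between subunits were not tested. Mcm5 was the member of the ring whose groups separated, by its brightest probe set, at 5673, 6600 and 6716 against 3820, 5210 and 4870, a difference of 0.46 ± 0.17 (adjusted p = 0.145). Mcm3 stood at 12395, 13914 and 15464 against 12673, 10722 and 10666, a difference of 0.29 ± 0.14, and knockout 5 lay below wild type 5. Mcm4 read 6659, 9258 and 7143 against 7075, 7724 and 7727, with a 95% interval of -0.32 to 0.36 around 0.02, and this value changed sign with quantile (-0.0056) and cyclic loess (-0.0093) normalization. Mcm7 read 14995, 11745 and 14209 against 13300, 13479 and 12805, a difference of 0.04 ± 0.14 with an interval of -0.26 to 0.34. The groups of both genes overlapped widely. Mcm6, at -0.21 ± 0.14, stood at 14657, 12082 and 13741 against 16242, 13958 and 16588. It was lower in every pair although the groups overlapped, and the 95% interval of its difference ran from -0.51 to 0.09. The second Mcm6 probe set gave -0.01 ± 0.15 and was higher in the pair numbered 7. Mcm2 had signals of 3264, 6387 and 2864 against 5322, 3969 and 5428, so that knockout 7 was the highest array of all and the other knockout-labelled arrays the lowest. Its difference of -0.31 ± 0.26 therefore rests on scattered values, and its second probe set, with 2900, 3395 and 3897 against 2750, 3339 and 3061, gave 0.15 ± 0.17. Mcm7 had 4 tested probe sets, and the dimmer ones gave 0.41 ± 0.14, 0.37 ± 0.16 and 0.25 ± 0.17. The first of these read 6423, 6004 and 6105 against 4615, 4556 and 4750, a narrow spread in both groups with no overlap, yet an adjusted p of 0.134.

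The factors that turn the loaded ring into a moving helicase came next. Mcm10, which is needed to activate it, had signals of 4050, 3430 and 3776 against 2461, 2379 and 2987. Every knockout-labelled array exceeded every wild-type array, with a difference of 0.53 ± 0.17 (adjusted p = 0.103). Gins1, a subunit of the GINS complex, stood at 2331, 2855 and 2788 against 2056, 1985 and 1920, also without overlap, at 0.41 ± 0.17 (adjusted p = 0.195). Cdc45, the third part of the active helicase, overlapped between the groups at 0.16 ± 0.19. In all, 12 of the 15 licensing and helicase genes lay above 0 and 7 had an unadjusted p under 0.05 (46.7%), with a median of 0.29.

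**Figure D2:**
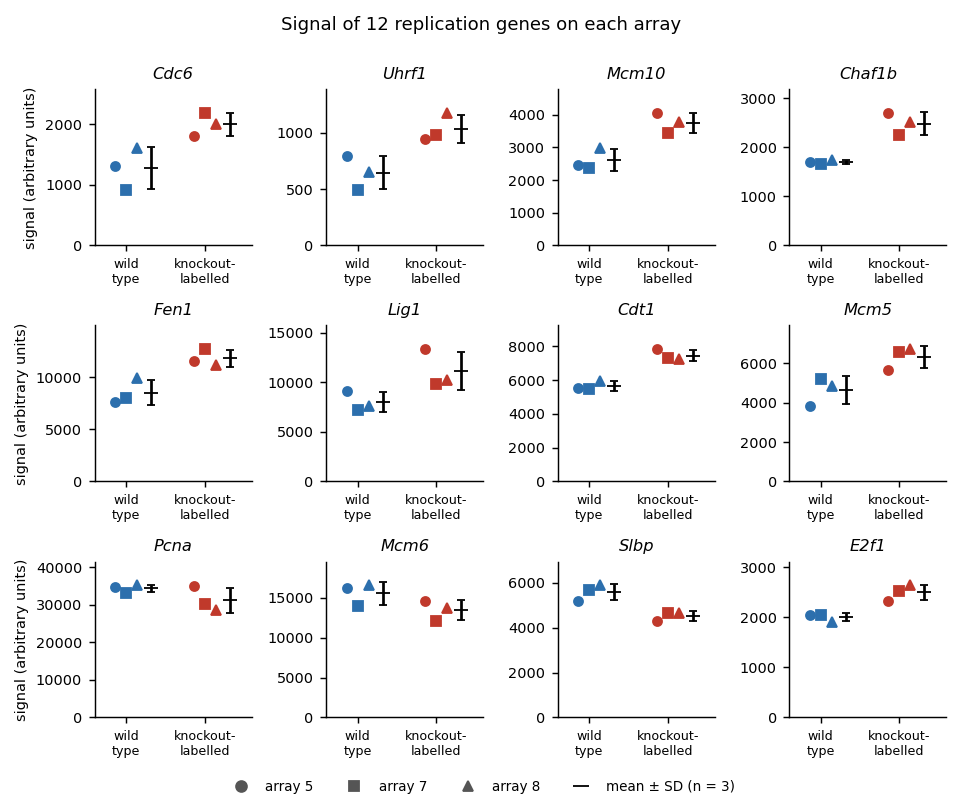
Signal in arbitrary units, on linear axes that start at 0, of 12 replication genes on the 3 wild-type (blue) and 3 knockout-labelled (red) arrays, with the mean ± SD of each group in black. Cdc6, Uhrf1, Mcm10, Chaf1b, Fen1, Lig1, Cdt1, Mcm5 and E2f1 have no overlap with the knockout-labelled arrays above, Slbp has none with them below, and Pcna and Mcm6 overlap.

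Pcna, the sliding clamp that tethers polymerases to DNA and a common marker of cycling cells, did not share the shift. Its signals were 34891, 30294 and 28490 against 34638, 33257 and 35195. The groups overlapped, the difference was -0.14 ± 0.12, and its 95% interval ran from -0.41 to 0.12. The clamp loader is the RFC complex, and its 5 subunits gave differences between 0.01 (Rfc1) and 0.43 (Rfc3), of which none had an unadjusted p under 0.05. Rfc3 stood at 1145, 1673 and 1571 against 909, 1224 and 1093, higher in every pair but with knockout 5 below wild type 7. Rfc1 probe sets gave 0.01 ± 0.20, -0.51 ± 0.34 and -0.25 ± 0.30.

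Polymerase and primase genes had a median of 0.20, with 6 of 8 above 0. Pold2, the small subunit of polymerase delta, stood at 1925, 2051 and 1880 against 1604, 1231 and 1625, without overlap, at 0.40 ± 0.18 (adjusted p = 0.247). Prim2, the large subunit of primase, was also without overlap at 0.30 ± 0.18 (adjusted p = 0.408). By its second probe set Prim2 overlapped between the groups at 0.19 ± 0.23. Its partner Prim1, the catalytic subunit, lay on the other side of 0 at -0.13 ± 0.15, and at -0.46 ± 0.22 by its second probe set. Pole, the catalytic subunit of the leading-strand polymerase epsilon, had signals of 2598, 2985 and 2155 against 2358, 3886 and 3272, a difference of -0.28 ± 0.21, while its partner Pole2 stood at 0.19 ± 0.18. Pola1, the catalytic subunit that extends RNA primers, stood at 5093, 5859 and 5239 against 6114, 5297 and 3761. Wild type 8 was the lowest of these arrays, and without it the difference of 0.12 ± 0.19 became -0.08. Pold1 and Pola2 stood at 0.26 ± 0.18 and 0.22 ± 0.32 with overlapping groups.

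The genes of single-strand binding and lagging-strand maturation had a median of 0.45 over 5 genes, all above 0, where 49.2% of all genes were. Fen1, the flap endonuclease that trims Okazaki fragments, had signals of 11525, 12685 and 11194 against 7591, 8046 and 9886. The groups did not overlap, and the difference of 0.48 ± 0.15 had the smallest adjusted p of all members by the brightest probe set (0.0960). Its second probe set stood at 0.36 ± 0.17. Lig1, the ligase that seals the trimmed fragments, had signals of 13340, 9873 and 10247 against 9108, 7240 and 7618. Arrays numbered 5 were the highest in both groups, and the pair differences were close, at 0.55, 0.45 and 0.43. The difference was 0.47 ± 0.16 (adjusted p = 0.124), and Lig1 is the member called higher once sample number enters the fit as a block (adjusted p = 0.0424). Of the subunits of RPA, which coats single-stranded DNA, Rpa1 stood at 24809, 19728 and 19741 against 17646, 17060 and 17880, without overlap, at 0.28 ± 0.14 (adjusted p = 0.275). Rpa2 and Rpa3 overlapped between the groups at 0.45 ± 0.23 and 0.14 ± 0.23.

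Ribonucleotide reductase makes deoxynucleotides from ribonucleotides, and its small subunit Rrm2 gave the only member probe set past the threshold. Rrm2 has 3 probe sets. The second brightest read 1668, 1703 and 1411 against 764, 431 and 819, a rise of 1.28 ± 0.24 (adjusted p = 0.0129, or 0.0556 without knockout 7). The brightest one read 2609, 2226 and 2641 against 2517, 1951 and 2386, a difference of 0.13 ± 0.18 with overlapping groups. The third read 457, 812 and 582 against 330, 430 and 540 and gave 0.48 ± 0.27. All 3 lay above 0 and were higher in every pair, but they differed in size, so the call rests on the choice of probe set. Rrm1, the large subunit, stood at 11984, 10938 and 11620 against 10979, 8981 and 10418, a difference of 0.19 ± 0.14.

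Dut removes dUTP, which keeps uracil out of DNA, and stood at 2216, 2215 and 2685 against 1927, 1047 and 2061. Wild type 7 was lowest by a wide margin, and the difference was 0.55 ± 0.24 (adjusted p = 0.221), or 0.24 without that array (adjusted p = 0.638). Tk1, the salvage kinase for thymidine, stood at 0.30 ± 0.17 and was higher in all 3 pairs. Tyms, which makes thymidylate, could not be judged. Its brightest probe set read 147, 151 and 90.8 against 153, 132 and 136, and 4 of these 6 values did not exceed the brightest Bacillus control of their array (100.2 to 162).

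Chromatin is reassembled behind the fork by CAF-1, and Chaf1b, its middle subunit, had signals of 2696, 2241 and 2516 against 1705, 1657 and 1741. The wild-type arrays lay within a narrow range (1701 ± 42.1, SD, n = 3) and all knockout-labelled arrays above it (2484 ± 229). The difference was 0.54 ± 0.17 (adjusted p = 0.0989). Uhrf1, which brings the maintenance methyltransferase to newly made DNA, stood at 944, 980 and 1175 against 792, 495 and 652, without overlap, at 0.68 ± 0.22 (adjusted p = 0.109). Its dimmer probe set, below the brightness filter, read 297, 220 and 331 against 152, 48.8 and 221, and 2 of these 6 values did not exceed the control level. Slbp, the protein that binds the stem-loop of histone messages, went the other way at 4284, 4644 and 4645 against 5177, 5661 and 5889. It was the one member with all knockout-labelled arrays below all wild-type arrays, with a difference of -0.30 ± 0.15 (adjusted p = 0.291).

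The regulators of S phase entry were above 0 without passing the test. E2f1, a transcription factor that activates many of the genes above, had signals of 2332, 2516 and 2637 against 2052, 2041 and 1910. The groups did not overlap, and the difference was 0.31 ± 0.16 (adjusted p = 0.318). Its dimmer probe set overlapped at 0.16 ± 0.33. Ccne1, a cyclin that activates Cdk2 at the G1/S boundary, stood at 365, 444 and 493 against 138, 238 and 423. Wild type 5 lay below the control level of its array, and the difference of 0.79 ± 0.34 (adjusted p = 0.217), the largest of all members, shrank from 1.30 in the pair numbered 5 to 0.21 in the pair numbered 8. Without wild type 5 it was 0.42 (adjusted p = 0.503). Ccne2 stood at 773, 898 and 1518 against 766, 850 and 979, a difference of 0.24 ± 0.25, which became -0.05 without knockout 8.

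**Figure D3:**
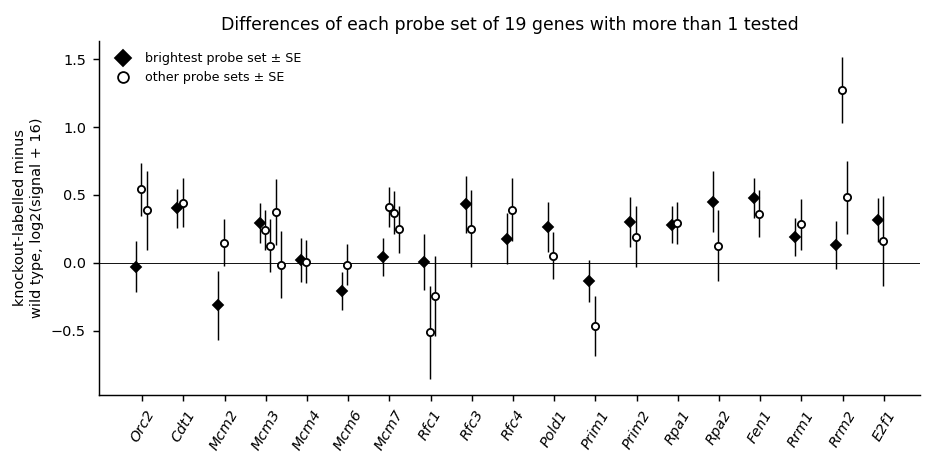
Differences, knockout-labelled minus wild type on the log2(signal + 16) scale with bars of ± 1 SE, for every tested probe set of the 19 members that have more than 1. Filled diamonds are the brightest probe sets, and the single open circle above 1 is Rrm2 at 1.28.

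The probe sets of a gene mostly lay on the same side. Of the 19 members with more than 1 tested probe set, 13 had all of them above 0, 2 had all below 0 (Mcm6 and Prim1) and 4 were mixed (Orc2, Mcm2, Mcm3 and Rfc1), so that their direction depends on the probe set read. Some values lay close to 0, such as the second probe sets of Mcm6 (-0.01) and Mcm4 (0.01). Over the 71 tested probe sets 59 lay above 0, and an unadjusted p under 0.05 was reached by 19 above it and 0 below. Rrm2 gave the 1 call, against 1.44% of all probe sets called higher and 2.19% lower, and with the block Rrm2 and Lig1 gave 2, against 2.36% and 3.53%.

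The rest of the pathway was read from 5 further lists. Nucleotide synthesis genes were the list among them with the most calls: of 26 tested genes 6 rose (23.1%, against 1.42% of all genes) and 0 fell, 20 lay above 0 and the median was 0.28. Shmt1 and Shmt2, serine hydroxymethyltransferases that feed one-carbon units to thymidylate and purine synthesis, rose by 0.87 ± 0.18 (adjusted p = 0.0211) and 0.76 ± 0.16 (0.0220). Shmt1 read 3472, 2495 and 2654 against 1685, 1528 and 1448, and Shmt2 read 3025, 3000 and 2926 against 1672, 1727 and 1859, both without overlap. Their dimmer tested probe sets were not called, at 0.39 and 0.38 for Shmt1 and at 0.60 and 0.15 for Shmt2. Both calls therefore rest on the choice of probe set. Gart, an enzyme with several steps of purine synthesis, rose by 0.67 ± 0.16 (0.0331), and its dimmer probe sets stood at 0.87 and 0.64. Prps1, which makes the phosphoribosyl donor, rose by 0.63 ± 0.15 (0.0338). The other 2 called were Adsl (0.71 ± 0.18, adjusted p = 0.0490) and Aprt (0.61 ± 0.16, 0.0457), both purine enzymes and both named after their values were seen. A dimmer Aprt probe set stood at 0.51 and was not called. The 6 calls depended on the setting. 6 became 0 with any of knockout 5, knockout 8 or wild type 7 left out and with eBayes without trend, 1 without knockout 7 or wild type 5, 2 without the brightness filter and 3 with median centring. Samhd1, a triphosphohydrolase that degrades deoxynucleotides, and Rrm2b, the reductase subunit of the p53 pathway, stood at -0.48 ± 0.20 (adjusted p = 0.204) and -0.47 ± 0.22 (0.259). Both were named after their values were seen. Outside the count by brightest probe set, dimmer probe sets of Gart, Dhodh and Nme1 also passed the threshold. They stood at 0.87 (adjusted p = 0.0261), 1.12 (0.0114) and 0.74 (0.0261). The brightest probe sets of Dhodh and Nme1 gave 0.40 and 0.28 and were not called.

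Other replication factors had 1 call (3.57%, against 1.42% of all genes called higher). Asf1b, a chaperone that hands histones H3 and H4 to CAF-1, rose by 0.82 ± 0.19 (adjusted p = 0.0331), with 4334, 3777 and 3358 against 2554, 1689 and 2286. The call was lost without knockout 5, 7 or 8 or wild type 7, without the brightness filter and with eBayes without trend (adjusted p 0.0223 to 0.137 over the alternatives). Of the 28 tested genes in that list 16 lay above 0 with a median of 0.14. An unadjusted p under 0.05 was found for 5 above 0 (17.9%, against 9.41% of all genes) and 1 below (3.57%, against 11.2%). Mcmbp, Dna2 and Nasp stood at 0.51 ± 0.19, 0.51 ± 0.20 and 0.48 ± 0.21.

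The lists of checkpoint and fork repair genes, of E2F factors and G1/S kinases and of mitosis genes had medians near that of all genes (-0.01). An unadjusted p under 0.05 was reached by 9.41% of all genes above 0 and 11.2% below. The shares were 10.5% and 5.26% of checkpoint and fork repair genes and 3.23% and 9.68% of mitosis genes. For E2F factors and G1/S kinases they were 7.14% and 0%. Replication checkpoint and fork repair genes had a median of -0.01, with 9 of 19 above 0 and 0 called (unadjusted p under 0.05 in 2 above 0 and 1 below). Rad54l and Exo1, both of homologous recombination and end resection, stood at 0.53 ± 0.17 and 0.47 ± 0.18, and Rad17, the checkpoint clamp loader, at -0.51 ± 0.19, while Fanca stood at 0.42 ± 0.20. E2F factors and G1/S kinases had a median of 0.04 with 8 of 14 above 0 and 0 called (unadjusted p under 0.05 in 1 above 0 and 0 below). Tfdp1, the partner that E2F factors need to bind DNA, stood at 0.42 ± 0.19, Mybl2 at 0.34 ± 0.22, and E2f5 and E2f4 at -0.31 ± 0.22 and -0.36 ± 0.26. Mitosis genes had a median of 0.01 with 16 of 31 above 0 and 0 called (unadjusted p under 0.05 in 1 above 0 and 3 below). Plk1 stood at 0.55 ± 0.20 and Cenpf, Kif23 and Nusap1 at -0.42 ± 0.16, -0.41 ± 0.17 and -0.38 ± 0.18. A dimmer Kif23 probe set, outside the count by brightest probe set, read 192, 174 and 189 against 407, 542 and 678, a fall to -1.45 ± 0.27 (adjusted p = 0.0104). The difference between the replication members and the mitosis genes was not itself tested. In the pairs, the median over mitosis genes was -0.15, 0.24 and 0.05 for arrays numbered 5, 7 and 8, so it changed sign, while that over the replication members did not.

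**Figure D4:**
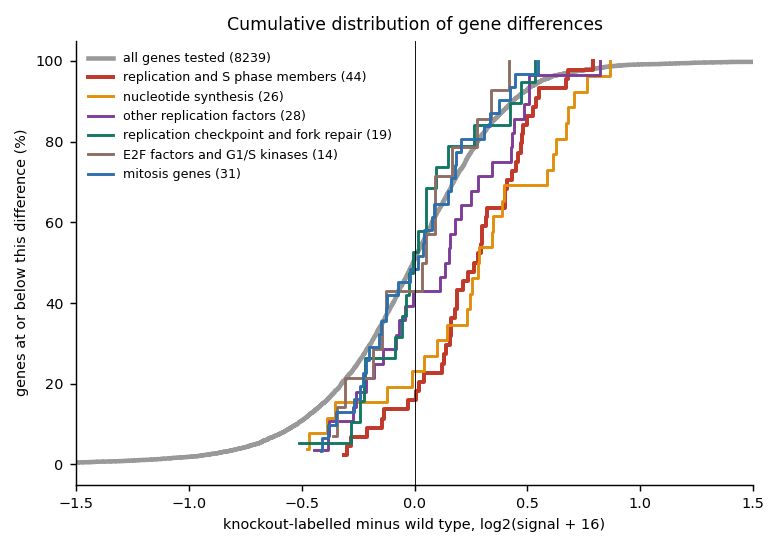
Cumulative share of genes (percent) at or below each difference, knockout-labelled minus wild type on the log2(signal + 16) scale, for the 44 replication members, 5 pathway lists and all 8239 genes tested (grey). In the middle, the curves of the members (median 0.27) and of nucleotide synthesis (0.28) lie to the right of the grey curve. Those of mitosis (0.01) and checkpoint genes (-0.01) lie along it there.

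Markers of other cell stages moved in the same arrays. For the counts below, 1.42% of all genes tested were called higher and 2.48% lower, or 2.34% and 4.02% in the blocked fit. Granulocyte-monocyte progenitor markers were higher in the knockout-labelled arrays: of 6 tested 5 rose and 0 fell, and the summed signal over the list was 61926 to 65863 against 19622 to 46388. Neutrophil markers were lower, with 5 of 8 called lower, or 7 in the blocked fit, and a summed signal of 5008 to 12913 against 20185 to 41360. Of 8 tested LSK and stem cell markers 3 fell, Kit, Flt3 and Hlf, with a sum of 24304 to 28335 against 33744 to 37944. In that list 7 markers lay below 0 and 1 above, Slamf1, uncalled at 0.38 ± 0.22 and higher in all 3 pairs. Cd34 stood at -0.11 ± 0.16 with overlapping groups and held a large part of the sum (13294 to 18188 against 15603 to 20461). These markers were named after their values were seen. Of 7 monocyte markers 3 rose (18764 to 20977 against 12008 to 12373). None of the tested erythroid (7), megakaryocyte (3), B-lineage (4) or T and NK cell (1) markers was called by limma. An unadjusted p under 0.05 was reached by 9.41% of all genes above 0 and 11.2% below. At that threshold 2 erythroid markers were lower, 1 megakaryocyte and 1 T and NK cell marker were higher, and 0 B-lineage markers differed. Their summed signals ran from 9049 to 10212 against 10559 to 18868, 2670 to 4067 against 2330 to 3939, 1310 to 2086 against 1792 to 2295, and 2786 to 3381 against 2251 to 2668. No list had a summed signal near 0. Of 7 B-lineage markers with a probe set, Cd79a, Cd79b, Ms4a1 and Igll1 exceeded the brightest Bacillus control on all 6 arrays and Pax5 on none. Of 7 T and NK cell markers, Nkg7 exceeded it on all 6 arrays (1605 to 2727) and Cd4 on none.

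The part of these cell stages in the shift of the replication genes was not tested, but the arrays can be set side by side. The progenitor markers differed by a median of 1.76 and 2.31 in the pairs numbered 5 and 7 and by 0.57 in the pair numbered 8, where wild type 8 was high in them. The replication members differed by 0.22, 0.27 and 0.29 in the same pairs. As deviations from the mean of the 6 arrays, the median over members was 0.13, 0.13 and 0.16 in the knockout-labelled group against -0.09, -0.19 and -0.02 in wild type. All 3 knockout-labelled arrays therefore lay above all 3 wild-type arrays, and wild type 8 lay closest to them. Without wild type 8 the median difference was 0.30, and over every array left out in turn it ran from 0.24 to 0.31.

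**Figure D5:**
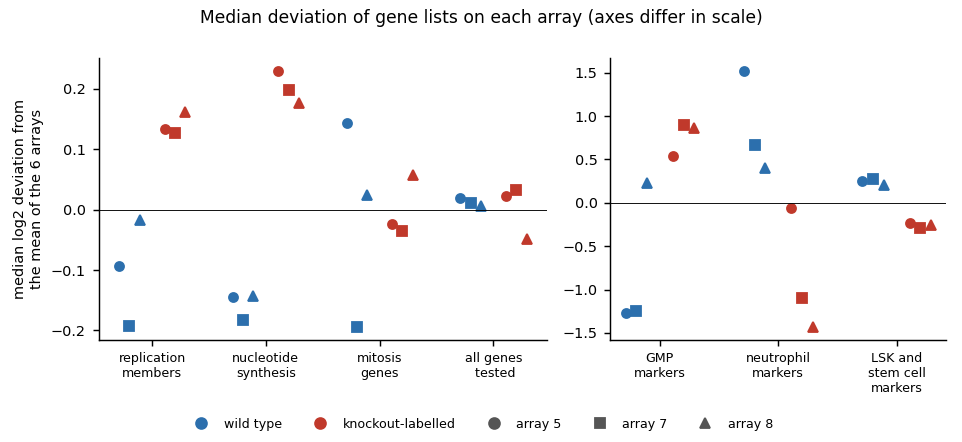
Median log2 deviation of gene lists from the mean of the 6 arrays, for each wild-type (blue) and knockout-labelled (red) array, with replication, nucleotide, mitosis and all tested genes on the left and marker lists on a wider scale on the right. Replication members lie at 0.13 to 0.16 on the knockout-labelled arrays and at -0.19 to -0.02 on the wild-type arrays, while all genes lie within 0.05 of 0.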

How the data were processed

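The authors deposited 1 intensity (a linear signal) for each probe set on each array. MAS5 made it, per the submitters' processing notes, which name no version here. Per the labels' protocols, cells were sorted by flow cytometry, and 10 ng of total RNA was amplified in 2 rounds. Gapdh control signal was 4.30 to 6.11 times as high at the 3' as at the 5' end, and that of beta-actin 1.15 to 1.47 times. The deposited columns already shared 1 scale, with means after trimming 2% at each end of 1000.33 to 1000.37. Median signals were 286 to 335, and 67.0% to 74.4% of probe sets exceeded the brightest of 27 Bacillus controls. The number of arrays limits the precision.

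From 22690 probe sets 64 AFFX controls were left out. log2(signal + 16) was tested for the 60% with the highest mean of it (13575, above about 198) with limma 3.58.1 in R 4.3.3 (lmFit, eBayes with trend, two-sided, 3 arrays against 3), with Benjamini-Hochberg adjustment and a threshold of 0.05. No further normalization was applied. The fit was tested on simulated data. Of the 22626 non-control probe sets, 20380 had 1 symbol in the platform annotation, which can be old, 691 several and 1555 none. Sequences are from RefSeq (GRCm38.p6).

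The members and lists were chosen with earlier results of these data known. Shown with every array's signal are the 14 members with the smallest p, every called probe set of a member and 18 members listed whatever their values. Of each pathway list, the 4 genes with the smallest p are named. The main fit used no pairing. The numbers 5, 7 and 8 were taken as a pairing only for the pair differences and the block, and the labels do not state one. Same-numbered samples deviated from their group means together (correlations of 0.159, 0.168 and 0.238), and differently numbered ones did not (-0.134 to -0.0307). Deviations within a group cancel out for each probe set, so positive correlations for same-numbered samples make the others negative on balance. The contrast therefore cannot settle whether the samples were paired. Alternatives were the block, 2 filters, 2 pseudocounts, 3 normalizations, eBayes without trend, 2 ways of choosing probe sets and each array left out.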

Additional observations from a re-analysis of the deposited data

How the results depend on the processing

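Over 17 alternatives the count of members called higher stayed at 0 except for 1 with the sample number as a replicate block (Lig1, adjusted p = 0.0424), 1 without less specific probe sets (Rrm2, 0.0129) and 0 to 1 with single arrays left out (Cdc6 without wild type 8); 0 were called lower under any. The block changed no other member's call by the brightest probe set and left the calls of the pathway lists at 7 higher and 0 lower. The median difference of the members ran from 0.24 to 0.31 with 1 array left out and became 0.33 with median centring, where the median of all probe sets tested was 0.05. Members above 0 numbered 33 to 38. Nucleotide synthesis calls numbered 0 to 5 with 1 array left out, 2 without the brightness filter, 3 with median centring and 0 with eBayes without trend; over the 5 pathway lists, 7 calls became 0 to 6, 2, 4 and 0. Uncalled differences changed sign for Mcm4 with quantile (-0.0056) and cyclic loess (-0.0093) normalization and Mcm2 without less specific probe sets (0.15), and with single arrays left out for Mcm4 (-0.12 to 0.12; below 0 without knockout 7 or wild type 5), Mcm7 (-0.030 to 0.15; knockout 5), Ccne2 (-0.046 to 0.43; knockout 8) and Pola1 (-0.079 to 0.27; wild type 8). Leaving an array out also lowers the number of arrays, and the cause of these changes was not tested. Tyms, dim on most arrays, is beyond the reach of these signals.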
